A study of Mus musculus with 12 samples.

Results

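Membrane traffic and small GTPase genes were followed in mouse liver after deletion of Apc, of Myc, or of both. They were taken as every probe set with a single gene symbol in the authors' 5% lists of changed genes whose symbol begins with Rab, Arf, Arl, Vps, Snx or Sec and a digit, with Cop and a letter, or with Tmed, Stx, Vamp or Trappc. This gave 29 probe sets of 24 genes, out of 2517 single-symbol probe sets (2176 genes) in the lists and 32115 probe sets tested. Of the 29, 28 came from the list of WT against ApcMyc, 1 (Arl15) from that of Apc against ApcMyc and 0 from that of WT against Apc. In the authors' deposited table of WT against ApcMyc, 20 probe sets (16 genes) stood higher in ApcMyc and 8 (7 genes) lower. No Arf, Tmed or Cop gene was among them, and 1 probe set that carries several symbols, Snx6 among them, was left out.

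Membrane traffic moves proteins and lipids between compartments. New secretory proteins enter the endoplasmic reticulum (ER) through the Sec61 channel and leave it in coated vesicles for the Golgi. Rab and Arl proteins are small GTPases that mark membranes and recruit effectors, tethers such as TRAPP capture vesicles, and SNARE proteins (syntaxins and VAMPs) fuse them with their target. Retromer and sorting nexins return cargo from endosomes to the Golgi and the cell surface. Hepatocytes use these routes to secrete plasma proteins into blood and to carry proteins to the bile canaliculus.

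The 12 samples were of liver tissue in 4 groups of 3, with an array for each. All mice, the WT controls included, carried AhCre, a Cre recombinase driven by an inducible promoter, and per the labels all received 80 mg/kg beta-naphthoflavone 3 times in a day and were sampled at day 4. WT mice were wild-type controls, Apc mice were homozygous for floxed Apc, Myc mice for floxed cMyc, and ApcMyc mice for both. The age and sex of the animals and the share of cells that recombined were not given in the sources used here, and though each sample's title carries its own identifier, the labels do not say what it stands for. The tests therefore reflect sample-to-sample spread, which may be technical.

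Values are given as log2(signal + 16) after quantile normalization, with a floor of 4.09, so the difference of a dim probe set is understated. Levels are compared only within a probe set. Median signals before normalization were 35.4 to 45.3 in WT, 42.4 to 53.7 in Apc, 59.5 to 78.9 in Myc and 86.5 to 106.9 in ApcMyc, and 79 to 532 probe sets an array lay at the signal floor. The probe set of Myc itself read 5.30 to 6.56 in WT, 8.58 to 9.09 in Apc, 4.89 to 5.47 in Myc and 5.37 to 5.51 in ApcMyc, and since the deleted exons are not stated, this may not check the deletion. The sample titles have a style shared by WT and Apc and another shared by Myc and ApcMyc, so Myc deletion and title style cannot be told apart in Myc against WT, ApcMyc against Apc or ApcMyc against WT. The lists named 2 of 7 hepatocyte markers, Apoa1 and Apob, whose summed signal was 24099 to 25364 in WT, 25064 to 25840 in Apc, 21194 to 22513 in Myc and 11326 to 14019 in ApcMyc. For 4 of 8 endothelial markers the sums ran from 254 to 621 in WT, 314 to 507 in Apc, 508 to 524 in Myc and 985 to 1124 in ApcMyc. For 2 of 8 Kupffer cell and macrophage markers they ran from 209 to 359 in WT, 181 to 315 in Apc, 384 to 722 in Myc and 843 to 1086 in ApcMyc. The 3 of 5 proliferation markers summed to 46.8 to 96.4 in WT, 696 to 1175 in Apc, 77.4 to 113 in Myc and 125 to 522 in ApcMyc, and the 3 of 6 red cell markers to 1159 to 1309, 204 to 298, 683 to 863 and 278 to 443. No stellate or bile duct marker was named, and the signal of the 1 lymphocyte marker, Nkg7, was 9.4 to 41.4 in WT, 14.9 to 27.2 in Apc, 58.1 to 80.4 in Myc and 49.3 to 59.0 in ApcMyc. In Myc against WT 1 marker each of the endothelial, Kupffer cell and lymphocyte lists was called higher, and in ApcMyc against Myc 1 endothelial marker was called higher and 1 hepatocyte and 3 red cell markers lower. Only markers in the lists of changed genes could be named, so a movement with the groups is built into their choice. Markers of a list did not all move alike. In ApcMyc minus Myc, Apoa1 stood at -0.35 and Apob at -1.93. The endothelial markers Pecam1, Cdh5, Kdr and Lyve1 stood there at -0.41, 0.10, 0.80 and 1.75. The part of the markers in the results was not tested. In whole liver, fewer cells of a type and less RNA per cell cannot be told apart.

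Since the authors' lists compared WT, Apc and ApcMyc, the members' differences between those 3 groups are a description and carry no test. The tests below use the Myc arrays, which chose nothing, in ApcMyc against Myc, in Myc against WT and in the difference between the 2 responses to Apc loss, (ApcMyc minus Myc) minus (Apc minus WT). Each still shares arrays with the choice of members. In ApcMyc against Myc and in Myc against WT, a lean towards the listed direction is therefore built in. In the difference of responses ApcMyc and WT enter with the same sign. With equal spread in both groups, that lean is not built in there for members chosen on ApcMyc against WT. Arl15 was chosen on Apc against ApcMyc, which enters that difference. Because of the shared arrays, the members' counts of calls are set beside the other 2922 probe sets of the same lists as well as beside all probe sets. Medians and counts without overlap are set beside all probe sets only. Of the 29 members, 20 were listed as higher in ApcMyc than WT and 8 as lower. The choice therefore favours a positive median in ApcMyc against Myc, Myc against WT and Apc against WT. All adjusted p are from limma with Benjamini-Hochberg adjustment over 32115 probe sets, and a probe set was called at an adjusted p under 0.05.

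With Myc deleted, loss of Apc raised 10 probe sets of 9 genes and lowered 6 of 6 genes, and 13 of the 29 did not pass the test. The rises were in the endosomal sorting genes Vps26a, Snx5 and Snx12, the syntaxins Stx3 and Stx7, Rab2b, and Sec14l4, Sec23ip and Sec61a2. The falls were in the GTPases Rab1b, Rab3a, Rab3d and Rab23, the SNARE Vamp5 and the SNARE regulator Stxbp6. The 16 calls were 55.17% of the members, against 13.4% of all probe sets (6.64% higher and 6.76% lower) and 44.8% of the other listed probe sets, so the members' share stood close to that of the lists they came from. The median difference over the members, most of them listed as higher in ApcMyc than WT, was 0.47, against -0.02 over all probe sets. The groups did not overlap for 24 of the 29, against 35.7% of all probe sets. With an array left out, 11 to 13 members were called. The calls of Vps26a, Stx7, Rab2b and Sec61a2 were not followed one by one under such alternatives.

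Between Myc and WT, 8 probe sets of 6 genes were higher and 3 of 3 genes lower. Rab14, Vamp3, Rab38, Trappc4, Stx3 and Vps26a rose, and Sec61a1, Rab1b and Vamp5 fell. These 11 calls, 37.93% of the members, compare with 9.11% of all probe sets (4.05% higher and 5.05% lower) and 28.7% of the other listed ones. The median was 0.44, against 0.01 over all probe sets, and 18 of the 29 had no overlap, against 33.3%. The number of calls stayed at 11 when WT replicate 1 was dropped. Dropping any other array of WT or Myc gave 5 to 7 calls. Over all probe sets, the calls in Apc against WT also fell with an array left out, from 4996 to between 3333 and 4685. The matching share of all probe sets in Myc against WT was not counted. Whether the calls depend on particular arrays or on the smaller groups was therefore not tested. Which calls were lost was not followed for Stx3, Vps26a, Trappc4 and 1 of the 2 Rab14 probe sets.

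**Figure D1:**
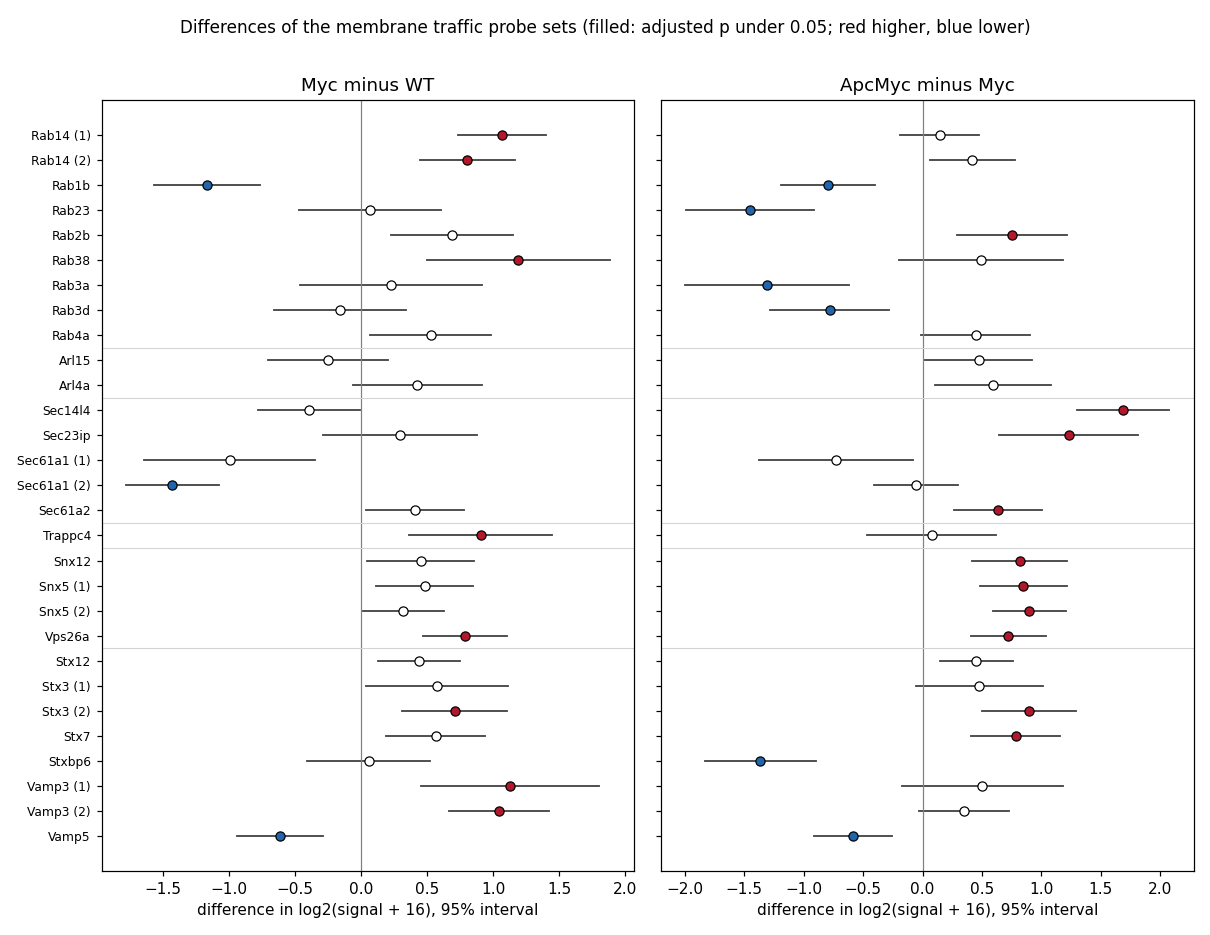
Differences of the 29 probe sets in log2(signal + 16) with 95% confidence intervals, Myc minus WT on the left and ApcMyc minus Myc on the right, grouped by role. Filled points passed an adjusted p under 0.05, 8 higher and 3 lower on the left, 10 higher and 6 lower on the right. Where a gene has 2 probe sets they are numbered. Sec14l4 is drawn with the ER and coat genes, though it is not part of that machinery.

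The step from WT to ApcMyc is the sum of these differences. Of the 28 probe sets chosen on it, the larger part lay in Myc minus WT for 13 and in ApcMyc minus Myc for 15. Both parts were called, in the same direction, for 4 probe sets (Stx3, Vps26a, Rab1b and Vamp5), only ApcMyc minus Myc for 12, only Myc minus WT for 7, and neither for 5. The 2 parts share the Myc arrays with opposite sign, and their sum chose these probe sets. The same split was not counted over all probe sets, so these counts only describe the members. Between the 3 groups that the lists compared, at least 2-fold differences were seen in 17 higher and 7 lower for ApcMyc against WT (5.41% and 4.95% of all probe sets), 8 higher and 4 lower for ApcMyc against Apc (3.86% and 4.16%), and 2 higher and 3 lower for Apc against WT (4.33% and 3.23%). In these 3 contrasts 28, 20 and 15 of the 29 had no overlap, against 39.9%, 36.4% and 31.5% of all probe sets. The median of the members in Apc against WT was 0.26, against -0.02 over all probe sets.

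**Figure D2:**
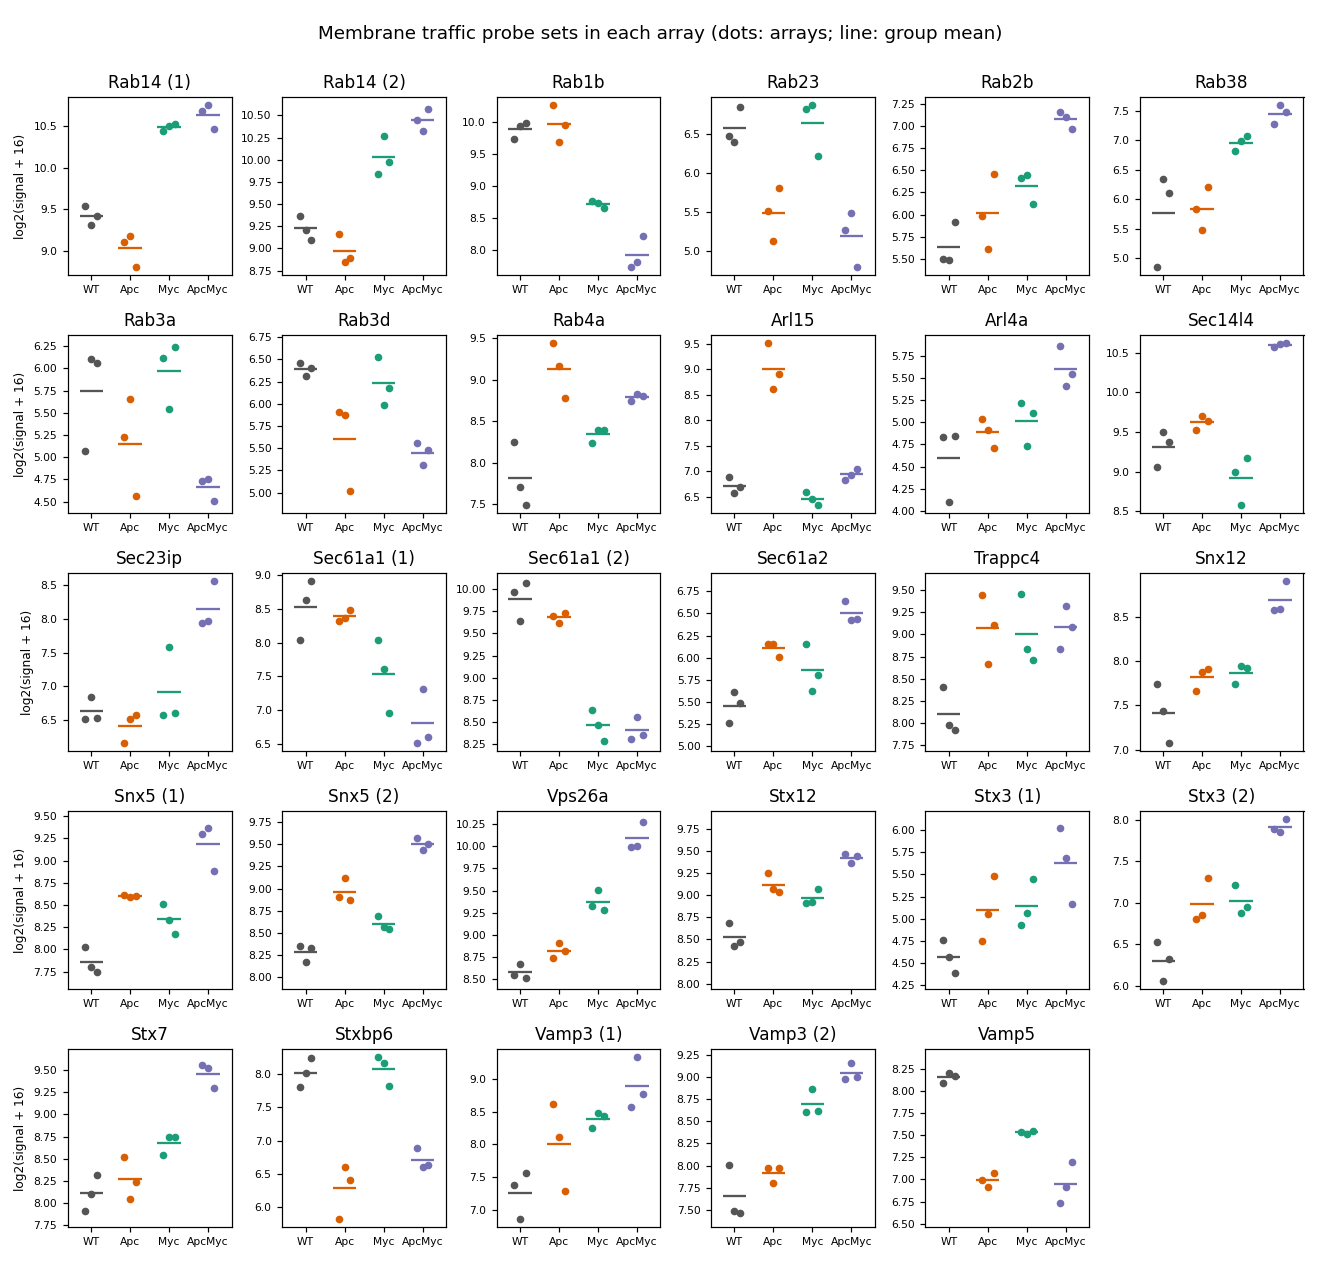
Level of each of the 29 probe sets in each of the 12 arrays, in log2(signal + 16), with WT, Apc, Myc and ApcMyc from left to right. Each dot is an array and each line the mean of 3; every panel has its own vertical scale, which does not start at 0. In the Rab14 panels the Myc and ApcMyc arrays sit above the WT and Apc arrays, in the Stxbp6 and Rab23 panels the Apc and ApcMyc arrays sit below the WT and Myc arrays, and in the Arl15 panel the 3 Apc arrays stand alone at 8.61 to 9.51.

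At the entry to the secretory pathway, Sec61a1 was lower in Myc than in WT on 1 of its 2 probe sets, and Sec61a2 was higher in ApcMyc than in Myc. Sec61a1 encodes the pore of the main protein channel of the ER, and its probe set 2 (as numbered in the plots) read 9.97, 9.64 and 10.07 in WT, 9.70, 9.62 and 9.72 in Apc, 8.63, 8.46 and 8.29 in Myc, and 8.31, 8.56 and 8.35 in ApcMyc. Every array with Myc deleted lay below every array with Myc intact. It fell by 1.43 between WT and Myc (SE 0.162, adjusted p = 0.000517) and stood at -0.06 between Myc and ApcMyc (95% interval -0.41 to 0.30, adjusted p = 0.867). Its probe set 1 read 8.04, 8.64 and 8.91 in WT, 8.33, 8.36 and 8.48 in Apc, 8.04, 7.60 and 6.96 in Myc, and 6.51, 7.30 and 6.60 in ApcMyc. It had the same order of group means with more spread, the Myc arrays overlapped those of WT and of ApcMyc, and neither its -0.99 for Myc against WT (adjusted p = 0.0566) nor its -0.73 for ApcMyc against Myc (adjusted p = 0.131) passed the test.

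Sec61a2, a second alpha subunit of the same channel, read 5.26, 5.62 and 5.49 in WT, 6.16, 6.16 and 6.01 in Apc, 6.16, 5.63 and 5.81 in Myc, and 6.64, 6.42 and 6.44 in ApcMyc. The ApcMyc arrays were the highest and all Apc arrays lay above all WT arrays. It rose by 0.64 in ApcMyc over Myc (SE 0.171, adjusted p = 0.0285), and the difference of 0.65 between Apc and WT is of the same size. This call, like that of Rab2b below, was not followed on its own under the alternatives.

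Rab1b, a GTPase of the stage from ER to Golgi, read 9.74, 9.94 and 9.99 in WT, 10.27, 9.69 and 9.95 in Apc, 8.77, 8.74 and 8.66 in Myc, and 7.74, 7.82 and 8.22 in ApcMyc. WT and Apc arrays overlapped, Myc arrays lay below both and ApcMyc arrays below Myc. Rab1b fell by 1.17 between WT and Myc (SE 0.184, adjusted p = 0.0031) and by 0.80 between Myc and ApcMyc (adjusted p = 0.0132), while Apc stood 0.08 from WT. The second fall was not called without ApcMyc replicate 1 (adjusted p = 0.0575). Rab2b, of the same ER to Golgi stage, went the other way, with means of 5.63 ± 0.245 in WT, 6.02 ± 0.422 in Apc, 6.32 ± 0.178 in Myc and 7.07 ± 0.0974 in ApcMyc (SD, n = 3). Its rise of 0.75 in ApcMyc over Myc was called (adjusted p = 0.0358), and its 0.69 in Myc over WT was not (adjusted p = 0.0627).

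Sec23ip, which binds the COPII coat at ER exit sites, read 6.51, 6.84 and 6.53 in WT, 6.17, 6.51 and 6.57 in Apc, 6.58, 7.58 and 6.60 in Myc, and 7.94, 7.97 and 8.56 in ApcMyc. Only the ApcMyc group stood apart, above all 9 other arrays, and Myc replicate 2, at 7.58, lay above its group. The rise over Myc was 1.23 (SE 0.269, adjusted p = 0.00989), whereas Apc stood at -0.21 against WT; the difference of responses, 1.44, did not pass the test (adjusted p = 0.069).

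Sec14l4 belongs by symbol to a family of lipid-binding transfer proteins and not to the Sec61 or coat machinery. It read 9.06, 9.50 and 9.37 in WT, 9.53, 9.71 and 9.64 in Apc, 9.0, 8.58 and 9.17 in Myc, and 10.57, 10.62 and 10.62 in ApcMyc. The ApcMyc arrays lay close together and above all others, and the lowest reading was in a Myc array. Sec14l4 rose by 1.69 in ApcMyc over Myc (SE 0.179, adjusted p = 0.000104), against 0.31 in Apc over WT. The difference of responses was 1.37 (SE 0.253, adjusted p = 0.0229), and 7 of 19 alternatives lost this call (adjusted p up to 0.06), among them leaving out WT replicate 2, Apc replicate 2, Myc replicate 1, Myc replicate 2 or ApcMyc replicate 2.

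Trappc4, a core subunit of the TRAPP tether that activates Rab1, read 8.40, 7.97 and 7.92 in WT, 9.44, 8.67 and 9.11 in Apc, 9.46, 8.84 and 8.71 in Myc, and 8.84, 9.31 and 9.09 in ApcMyc. All 3 mutant groups lay above WT and overlapped each other. It rose by 0.91 in Myc over WT (SE 0.249, adjusted p = 0.0411), and ApcMyc stood 0.08 above Myc (95% interval -0.47 to 0.62, adjusted p = 0.884).

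In endosomal sorting, all 4 probe sets of 3 genes (Vps26a, both of Snx5, and Snx12) rose with Apc loss when Myc was deleted, by 0.72 to 0.90, and 1 of the 4, Vps26a, rose in Myc over WT. Over the other listed probe sets 44.8% and 28.7% were called in these comparisons, and over all probe sets 13.4% and 9.11%. Vps26a is a subunit of the retromer cargo complex. It read 8.55, 8.68 and 8.52 in WT, 8.74, 8.91 and 8.82 in Apc, 9.32, 9.50 and 9.28 in Myc, and 10.00, 10.00 and 10.27 in ApcMyc. The 4 groups did not overlap and rose in that order. The differences were 0.79 for Myc over WT (SE 0.147, adjusted p = 0.00718) and 0.72 for ApcMyc over Myc (adjusted p = 0.00663), against 0.24 for Apc over WT.

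Snx5 is a sorting nexin whose curved domain shapes the tubules that carry retrieved cargo. Its probe set 2 read 8.35, 8.17 and 8.33 in WT, 8.90, 9.12 and 8.87 in Apc, 8.69, 8.57 and 8.55 in Myc, and 9.57, 9.43 and 9.50 in ApcMyc. Its probe set 1 read 8.03, 7.80 and 7.75 in WT, 8.62, 8.59 and 8.60 in Apc, 8.51, 8.33 and 8.17 in Myc, and 9.30, 9.36 and 8.88 in ApcMyc. On both, every group was apart from the others in the order WT, Myc, Apc, ApcMyc. ApcMyc exceeded Myc by 0.90 and 0.85 (adjusted p = 0.00143 and 0.00606), Apc exceeded WT by 0.68 and 0.75, and the differences of responses were 0.22 and 0.10 (95% intervals -0.21 to 0.65 and -0.42 to 0.62). Snx12, a small sorting nexin of early endosomes, read 7.75, 7.43 and 7.08 in WT, 7.67, 7.88 and 7.91 in Apc, 7.74, 7.95 and 7.93 in Myc, and 8.57, 8.59 and 8.90 in ApcMyc. The first 3 groups overlapped and ApcMyc lay above them, 0.82 over Myc (SE 0.186, adjusted p = 0.0122). Without Myc replicate 1 this was not called (adjusted p = 0.0516).

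The promoters of these genes were searched for CACGTG, the E-box bound by Myc and its partner Max, and for CTTTGAT, a motif of the TCF/LEF factors through which beta-catenin acts after Apc loss, on both strands of the 250 bases before the start. Of the 24 genes 18 matched the RefSeq table of build GRCm38.p6, with 23 promoter windows. CACGTG was in 5 of the 23 windows, of Snx5, Vps26a (both of its windows), Sec23ip and Rab23, against 6.02% of all 32851 windows, and CTTTGAT in 0 of 23 against 3.21%. By gene, 4 of the 18 held CACGTG. Rab23, which fell in ApcMyc against Myc, held it in 1 window and not in its other, and is not printed. Stx3, Stx7, Rab2b, Snx12 and Sec61a2 rose there, and their windows held no CACGTG. Whether the motif goes with the direction of change was not tested. A match shows only that the letters are there. The windows of 3 genes that rose in ApcMyc over Myc are printed 5′ to 3′ on the gene's strand with CACGTG in capitals, at chr2:144270573-144270822 (minus strand) for Snx5, chr10:62486599-62486848 (minus strand) for Vps26a and chr7:128744620-128744869 (plus strand) for Sec23ip. The motif begins 50 bases before the start in Snx5, 175 and 151 bases before it in Vps26a, and 53 bases before it in Sec23ip. For Vps26a the window with more matches is printed, with 2, and its other window holds 1.
Snx5: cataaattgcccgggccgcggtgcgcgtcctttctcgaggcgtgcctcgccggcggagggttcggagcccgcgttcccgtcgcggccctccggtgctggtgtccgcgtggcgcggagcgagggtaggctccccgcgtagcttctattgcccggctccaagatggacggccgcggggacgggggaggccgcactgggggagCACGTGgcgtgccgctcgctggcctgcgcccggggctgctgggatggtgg
Vps26a: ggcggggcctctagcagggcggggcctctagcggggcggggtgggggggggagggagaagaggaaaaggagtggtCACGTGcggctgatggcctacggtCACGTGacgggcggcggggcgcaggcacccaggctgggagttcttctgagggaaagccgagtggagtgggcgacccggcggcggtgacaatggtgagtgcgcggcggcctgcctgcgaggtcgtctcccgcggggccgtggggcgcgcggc
Sec23ip: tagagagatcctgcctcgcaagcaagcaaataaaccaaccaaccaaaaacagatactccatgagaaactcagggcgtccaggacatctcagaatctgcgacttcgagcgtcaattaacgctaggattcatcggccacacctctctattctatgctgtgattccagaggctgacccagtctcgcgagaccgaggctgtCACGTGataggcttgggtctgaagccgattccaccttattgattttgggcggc

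Rab GTPases beyond the ER to Golgi stage split by direction. Rab14, which works between the Golgi and endosomes, was measured by 2 probe sets. Probe set 1 read 9.54, 9.31 and 9.42 in WT, 9.11, 9.18 and 8.81 in Apc, 10.44, 10.50 and 10.52 in Myc, and 10.68, 10.75 and 10.47 in ApcMyc. Probe set 2 read 9.37, 9.21 and 9.10 in WT, 9.16, 8.84 and 8.89 in Apc, 9.84, 10.26 and 9.98 in Myc, and 10.44, 10.32 and 10.57 in ApcMyc. On both, all 6 arrays with Myc deleted lay above all 6 with Myc intact. Rab14 rose in Myc over WT by 1.07 and 0.80 (adjusted p = 0.00192 and 0.012), and ApcMyc over Myc was 0.14 and 0.42 (adjusted p = 0.596 and 0.12).

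Rab38, known from the biogenesis of lysosome-related organelles, read 4.86, 6.35 and 6.09 in WT, 5.84, 5.48 and 6.20 in Apc, 6.81, 6.99 and 7.06 in Myc, and 7.28, 7.59 and 7.47 in ApcMyc. Again all arrays with Myc deleted were above those with Myc intact, with WT replicate 1 far below its group. The rise of 1.19 in Myc over WT (SE 0.319, adjusted p = 0.0374) was lost under 8 of 14 alternatives, among them without WT replicate 1, WT replicate 3 or any Myc replicate, with adjusted p from 0.0149 to 0.109. Rab4a, of fast recycling from early endosomes, read 8.25, 7.71 and 7.50 in WT, 9.44, 9.16 and 8.78 in Apc, 8.24, 8.40 and 8.40 in Myc, and 8.74, 8.83 and 8.81 in ApcMyc. Its Apc and ApcMyc arrays lay above those of WT and Myc. The difference was 1.31 in Apc over WT and 0.45 in ApcMyc over Myc (95% interval -0.01 to 0.90, adjusted p = 0.192).

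The 3 remaining Rab genes were lower in ApcMyc than in Myc. Rab23, a negative regulator of hedgehog signalling, read 6.47, 6.40 and 6.84 in WT, 5.51, 5.12 and 5.81 in Apc, 6.82, 6.87 and 6.22 in Myc, and 5.27, 5.48 and 4.80 in ApcMyc. All arrays with Apc deleted lay below all with Apc intact. Rab23 fell by 1.45 between Myc and ApcMyc (SE 0.248, adjusted p = 0.00246), against -1.09 in Apc minus WT.

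Rab3a and Rab3d act in regulated exocytosis. Rab3a read 5.07, 6.10 and 6.06 in WT, 5.22, 5.66 and 4.56 in Apc, 6.12, 5.55 and 6.24 in Myc, and 4.73, 4.75 and 4.50 in ApcMyc, below the array's median signal on all 12 arrays. It fell by 1.31 between Myc and ApcMyc (SE 0.318, adjusted p = 0.0173), and the call was lost without Myc replicate 1, Myc replicate 3 or ApcMyc replicate 3 (adjusted p up to 0.0695). Rab3d read 6.46, 6.32 and 6.40 in WT, 5.91, 5.87 and 5.02 in Apc, 6.53, 5.98 and 6.18 in Myc, and 5.56, 5.31 and 5.48 in ApcMyc. Its Apc and ApcMyc arrays were below those of WT and Myc. The fall of 0.78 between Myc and ApcMyc (SE 0.231, adjusted p = 0.0417) was lost under 8 of 13 alternatives, including without any of the 6 arrays compared (adjusted p up to 0.153).

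The Arl genes encode Arf-like GTPases. Arl15 read 6.90, 6.57 and 6.69 in WT, 9.51, 8.61 and 8.91 in Apc, 6.59, 6.47 and 6.35 in Myc, and 6.84, 6.93 and 7.05 in ApcMyc. The Apc arrays stood above all 9 others. Apc exceeded WT by 2.29, or 4.89-fold, and ApcMyc exceeded Myc by 0.47 (95% interval 0.02 to 0.92, adjusted p = 0.162). The difference of responses was -1.82 (SE 0.295, adjusted p = 0.0154), but Arl15 was chosen on Apc against ApcMyc, which enters that difference, so the test is not independent of the choice. Its promoter window at chr13:113794258-113794507 (plus strand, GRCm38.p6, from RefSeq), shown because Arl15 had the largest difference in Apc over WT among the members, held neither motif.
Arl15: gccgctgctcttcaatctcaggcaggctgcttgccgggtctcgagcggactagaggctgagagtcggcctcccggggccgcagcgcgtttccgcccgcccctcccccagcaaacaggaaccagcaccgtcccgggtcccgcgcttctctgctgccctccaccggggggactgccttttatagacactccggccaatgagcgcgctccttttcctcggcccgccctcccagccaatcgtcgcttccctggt

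Arl4a, an Arf-like GTPase, lay below the array's median signal on all 12 arrays, at 4.59 ± 0.427 in WT, 4.88 ± 0.169 in Apc, 5.02 ± 0.252 in Myc and 5.60 ± 0.233 in ApcMyc (SD, n = 3), with its lowest reading near the floor. Neither tested step was called, at 0.59 in ApcMyc over Myc (adjusted p = 0.107) and 0.42 in Myc over WT (adjusted p = 0.266). Arl4a and Rab3d were the members nearest the edge of the rule, with SAM scores of 1.689 and -1.708 and a q-value of 5.04% each in the authors' deposited table; the probe sets just outside it carry no names.

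Of the SNAREs and their regulator (8 probe sets, 6 genes), 2 rose and 2 fell in ApcMyc against Myc, and 3 rose and 1 fell in Myc against WT, against 13.4% and 9.11% of all probe sets and 44.8% and 28.7% of the other listed ones. Stx3, a syntaxin of apical membranes, read on probe set 2 at 6.53, 6.06 and 6.32 in WT, 6.80, 6.85 and 7.30 in Apc, 7.22, 6.88 and 6.95 in Myc, and 7.89, 7.85 and 8.0 in ApcMyc. Apc and Myc arrays overlapped, above WT and below ApcMyc. The rise was 0.71 in Myc over WT (adjusted p = 0.0322) and 0.90 in ApcMyc over Myc (SE 0.183, adjusted p = 0.00686), and Apc exceeded WT by 0.68. The dimmer probe set 1, below the array's median signal on all 12 arrays, read 4.76, 4.56 and 4.39 in WT, 4.75, 5.06 and 5.48 in Apc, 4.93, 5.07 and 5.44 in Myc, and 6.03, 5.68 and 5.16 in ApcMyc. It had the same signs, but its ApcMyc arrays overlapped those of Myc and neither step was called (adjusted p = 0.168 and 0.234).

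Stx7, a syntaxin of late endosomes, had means of 8.11 ± 0.206 in WT, 8.27 ± 0.236 in Apc, 8.68 ± 0.12 in Myc and 9.46 ± 0.14 in ApcMyc (SD, n = 3). It rose by 0.78 in ApcMyc over Myc (adjusted p = 0.0102), and its 0.56 in Myc over WT was not called (adjusted p = 0.0598). Stx12, a syntaxin of recycling endosomes, read 8.69, 8.43 and 8.47 in WT, 9.25, 9.07 and 9.04 in Apc, 8.91, 8.93 and 9.06 in Myc, and 9.46, 9.36 and 9.44 in ApcMyc. The ApcMyc arrays were above all others, and WT below all others. Its steps of 0.44 and 0.45 were just short of the threshold (adjusted p = 0.0736 for Myc over WT and 0.0541 for ApcMyc over Myc).

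Vamp3, a vesicle SNARE of recycling endosomes, read on probe set 2 at 8.01, 7.49 and 7.47 in WT, 7.97, 7.80 and 7.98 in Apc, 8.61, 8.87 and 8.62 in Myc, and 8.98, 9.16 and 9.0 in ApcMyc. Its probe set 1 read 7.37, 6.86 and 7.56 in WT, 8.63, 8.12 and 7.28 in Apc, 8.24, 8.48 and 8.44 in Myc, and 8.57, 9.33 and 8.77 in ApcMyc. Arrays with Myc deleted lay above those with Myc intact on probe set 2, while on probe set 1 the spread-out Apc arrays overlapped those of WT and of the Myc-deleted groups. Vamp3 rose in Myc over WT by 1.04 and 1.13 (adjusted p = 0.00416 and 0.0423), and on probe set 1 the call was lost without any of the 6 arrays compared (adjusted p up to 0.142). ApcMyc over Myc was 0.35 and 0.50 (adjusted p = 0.218 and 0.331).

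Vamp5, a VAMP best known from muscle, read 8.09, 8.20 and 8.16 in WT, 6.99, 6.91 and 7.08 in Apc, 7.54, 7.52 and 7.55 in Myc, and 6.74, 6.91 and 7.19 in ApcMyc. WT was highest, Myc lay between, and Apc and ApcMyc overlapped at the bottom. Vamp5 fell by 0.62 between WT and Myc (adjusted p = 0.0254) and by 0.59 between Myc and ApcMyc (SE 0.150, adjusted p = 0.0219), and Apc minus WT was -1.16. The first call was lost under 7 of 14 alternatives and the second under 5 of 14, among both of them leaving out any Myc array (adjusted p up to 0.0861 and 0.0909). Stxbp6, or amisyn, which binds syntaxin and holds back SNARE complex formation, read 7.81, 8.01 and 8.23 in WT, 5.82, 6.61 and 6.41 in Apc, 8.25, 8.16 and 7.82 in Myc, and 6.88, 6.60 and 6.64 in ApcMyc. Arrays with Apc deleted lay below all with Apc intact. Stxbp6 fell by 1.37 between Myc and ApcMyc (SE 0.215, adjusted p = 0.00149), with -1.74 in Apc minus WT and 0.06 in Myc minus WT (adjusted p = 0.906).

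The difference between the responses to Apc loss with Myc deleted and with Myc intact was called for 2 of the 29 probe sets, Sec14l4 and Arl15. This is 6.9% of the members, against 2.32% of all probe sets and 6.95% of the other listed ones. The members' share was thus close to that of the lists. The members' median difference of responses was 0.15, against 0.00 over all probe sets. Neither the Rab genes, the endosomal sorting genes nor the SNAREs had a call here, which does not show that their responses were alike.

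**Figure D3:**
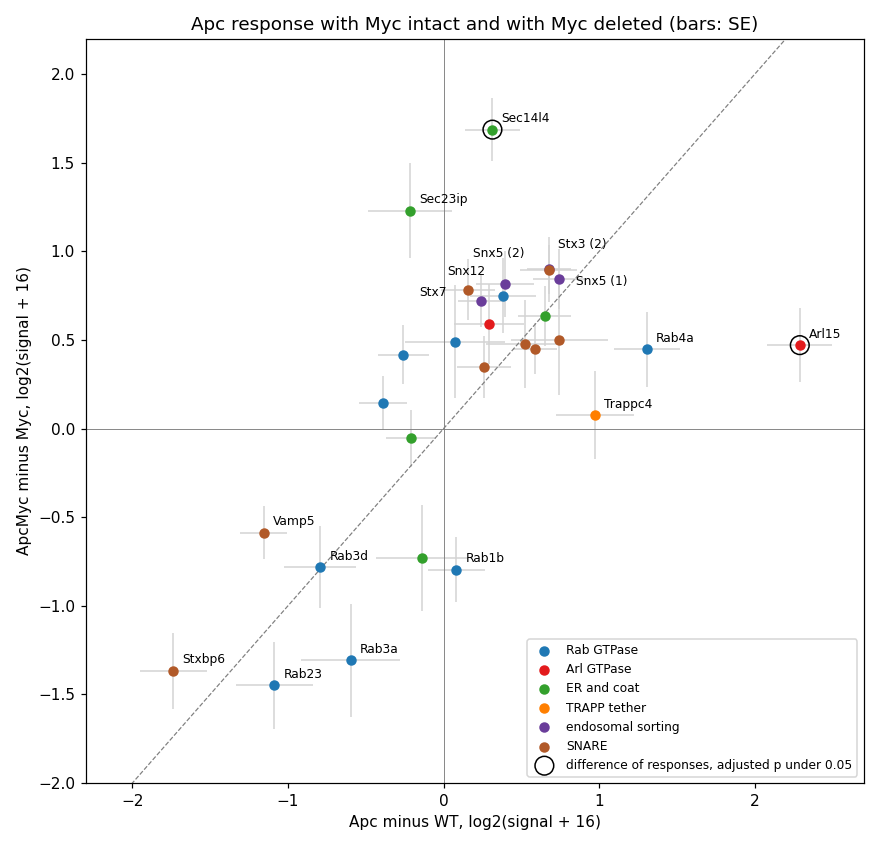
Difference between Apc and WT (horizontal) against that between ApcMyc and Myc (vertical) for the 29 probe sets, in log2(signal + 16), coloured by role, with bars of 1 SE and a dashed line of equal responses. The ringed points are Sec14l4 at 0.31 and 1.69 and Arl15 at 2.29 and 0.47, the 2 with a called difference of responses. Sec14l4 has the colour of the ER and coat genes, though it is not part of that machinery. The values on the horizontal axis belong to groups that chose the members.

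Of 252 other genes of membrane traffic and small GTPase signalling (Rab and Arf regulators, coats and adaptors, SNARE partners and tethers, cargo receptors and other GTPases), the lists named 31. In ApcMyc against Myc 7 rose, 5 fell and 19 did not pass, and in Myc against WT 8 rose, 5 fell and 18 did not pass. The 12 of 31 called in ApcMyc against Myc compare with 13.4% of all probe sets and 44.8% of the listed probe sets outside the members, and the calls in Myc against WT with 9.11% and 28.7%. The 7 that rose were Usp6nl (1.39), a GTPase-activating protein for Rab proteins, Ap3m1 (1.51) and Ap3s2 (0.82) of the AP-3 adaptor, Dennd5b (listed as D030011O10Rik, 1.02) and Dennd2d (0.94), which carry the DENN domain of Rab exchange factors, Asap2 (listed as Ddef2, 1.55), a GTPase-activating protein for Arf, and Yipf1 (0.49), a Golgi membrane protein. The 5 that fell were Ap2b1 (-2.18), a subunit of the clathrin adaptor AP-2, and Lman1 (-1.80), Tram1 (-0.94), Ergic1 (-0.74) and Ssr4 (-0.55), which act in protein entry into the ER or transport from it. Adjusted p of these 12 ran from 1.39e-05 (Ap2b1) to 0.0456 (Yipf1). The difference of responses was called for Ap2b1 (-2.28, adjusted p = 0.00283) and Asap2 (2.36, adjusted p = 0.0249). A second Ap2b1 probe set stood at 0.50 in ApcMyc against Myc (adjusted p = 0.0853) and -0.31 for the difference of responses (adjusted p = 0.545), so the probe sets of Ap2b1 disagree and its direction is uncertain. Each gene here is given by its brightest probe set.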

How the data were processed

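Total RNA of 12 liver samples was hybridized to 1 array each; the labels name neither array type nor log base. Each deposited value is a score, a log signal that the authors centred and scaled within its array. The authors' deposited lists, from SAM on unpaired classes per the file headers, hold a score and a q-value in percent for each probe set.

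Linear signals were recovered from the scores by fitting, in 20 iterations, the slope that places the lowest scores on a grid of 0.1 with a floor of 1, and 100.0% of signals below 1000 then lay within 0.01 of it. After quantile normalization, log2(signal + 16) of 32115 probe sets entered a limma 3.58.1 model (R 4.3.3) of 4 group means, leaving out 61 control probe sets of 32176. Tests are two-sided, with Benjamini-Hochberg adjustment within each of 6 comparisons. The planned test assumed that such signals could be recovered, and the scores as they are were an alternative. The fit was tested on simulated data. The number of arrays limits the precision.

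The members and gene lists were chosen with earlier results of these data known. Array values are given for members called in ApcMyc against Myc or the difference of responses (at most 6 rises and 6 falls each), in Myc against WT (at most 4 each), and, per role, for the brightest and the one with the largest Apc against WT difference; both probe sets of a gene are given. Other pathway genes were named by smallest p, at most 8 a direction. Names come from the lists, so unlisted genes are unnamed here. Per-sample columns left unused numbered 0. Replicate numbers of WT and Apc come from the titles, those of Myc and ApcMyc only name samples. Alternatives were median scaling, the scores, pseudocounts 1 and 64, a filter on dim probe sets, an intensity trend, fitting only the groups compared, averaging the probe sets of a gene, a replicate block and leaving out each array.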

Additional observations from a re-analysis of the deposited data

Results flagged for a closer look

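Among the members, 2 responses to Apc loss differed with Myc deleted, by the test of the difference itself in limma with Benjamini-Hochberg adjustment. They are 6.9% of the 29 probe sets, against 2.32% of all probe sets and 6.95% of the other listed ones. The members' share was thus close to that of the lists they came from. For Sec14l4 the response was larger by 1.37 with Myc deleted (adjusted p = 0.0229), and 7 of 19 alternatives lost the call (adjusted p from 0.00461 to 0.06). For Arl15 the difference was -1.82 (adjusted p = 0.0154), with all 3 Apc arrays above the rest, and all 19 alternatives kept the call (adjusted p from 0.0044 to 0.0468); Arl15 was chosen on Apc against ApcMyc, which is part of this difference.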

How the results depend on the processing

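No result changed direction under the alternatives run, and of 301 recomputed values of 21 named results 253 kept direction and call and 48 lost the call, with 12 results keeping it throughout. The calls of Vps26a, Stx7, Rab2b and Sec61a2 in ApcMyc against Myc were not among the 21. Nor were those of Stx3, Vps26a, Trappc4 and Rab14 probe set 2 in Myc against WT. How these calls hold 1 by 1 is therefore not given. The 16 members called in ApcMyc against Myc became 13 to 18 under the other settings and 11 to 13 with an array left out. The 11 called in Myc against WT became 7 on the scores as deposited, 8 with pseudocount 1, with only the groups compared and with the mean of each gene, 13 with median scaling, 14 with pseudocount 64 and with an intensity trend, 16 of 23 without dim probe sets, and 5 to 11 with an array left out. The 2 called for the difference of responses became 1 on the scores and with pseudocount 1, and 4 with pseudocount 64, without dim probe sets and with an intensity trend. They were 1 to 2 with an array left out, 1 without WT replicate 2, Apc replicate 2, Myc replicate 1 or ApcMyc replicate 2. The cause was not tested. Leaving out dim probe sets kept 23 of the 29 members, and in ApcMyc against Myc 10 rises and 3 falls were called among them. Rab3a, Rab3d and Rab23 were among those left out, so their falls were not tried under that setting. The 12 other pathway genes called became 9 to 14. Over all probe sets, 4996 calls in Apc against WT became 3151 with only these groups fitted, which has fewer samples, 2161 when the replicate block was also fitted, and 3333 to 4685 with an array left out. WT and Apc arrays of the same number did not deviate together (correlations 0.06, 0.01 and -0.01), so the numbers were not taken as pairs. No COP9 gene was among the members, so leaving out such genes was not run; leaving out Sec14l4, added after seeing the data, gave 15, 11 and 1 calls in the 3 comparisons tested. Limits: each group has 3 arrays, title style moves with Myc deletion, the members were chosen on arrays that also enter the tests, and dim members (Rab3a, Arl4a and Stx3 probe set 1) lie below the median signal on all 12 arrays. Sec61a2, Rab3d, Rab23, Rab2b and Rab38 lie below it on 9, 8, 7, 6 and 5 arrays.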
